A study of Oryzias latipes with 8 samples.

Results

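In the medaka optic tectum, cells expressing GFP from the wdr12 promoter were compared with cells that fell in the GFP-negative gate of that line. The sample labels placed 3 libraries in the wdr12 GFP-positive group and 2 in the wdr12 GFP-negative group, so the comparison used 5 of the 8 libraries of the series. Medaka (Oryzias latipes) is a small freshwater teleost. Both groups came from 1-month-old fish of the transgenic line Wdr12:GFP: optic tecta (30, per the protocol) were dissociated, the cells were sorted on a cytometer, and each library was made from 4 ng of RNA and sequenced with single 50 bp reads. The GFP-negative cells therefore came from fish that carry the transgene as well. The series describes them as a mixture of transit-amplifying progenitors, neurons past their last division, and glia. The remaining group, 3 libraries of ebf3 GFP-positive cells, was not part of the contrast but was fitted in the same model. It therefore entered the choice of genes tested, the scaling between libraries and the estimate of the spread between libraries. No label says whether the replicates of a group were separate pools of fish, so the p-values measure only the spread between these libraries, which may be technical.

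The fish optic tectum, the main visual centre of the midbrain, keeps growing after hatching from a neuroepithelium at its margin, whose cells divide and pass their descendants through an amplifying progenitor zone to become neurons. Neuroepithelial cells are kept in an undifferentiated state by SOX factors and by Notch signalling, which acts through transcriptional repressors of the Hes/Her family. Dividing cells also need a large supply of ribosomes, and wdr12 encodes a subunit of the PeBoW complex, which matures the large ribosomal subunit.

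Of 15640 genes tested, 1551 were higher in GFP-positive than in GFP-negative cells, which is 9.92% of them, and 1539 were lower, which is 9.84% (edgeR quasi-likelihood F test with Benjamini-Hochberg adjustment, adjusted p under 0.05). The changes were large: 650 of the genes that rose and 920 of those that fell changed by at least 4-fold, and 93 and 62 by at least 16-fold. Every GFP-positive library lay above every GFP-negative library in 25.4% of all tested genes, and below in 24.5%. Over tested genes with a symbol these shares were 44.0% and 41.1%. Only genes on the lists that the authors called changed carry a symbol, so the 4658 tested genes with a symbol are enriched for change: 29.9% of them were called higher and 30.7% lower. A family's count has to be read against these 2 shares and is not independent evidence of its direction. The median log2 fold change was 0.05 over all tested genes and 0.31 over those with a symbol. Counts rested on having both GFP-negative libraries: leaving out GFP-negative replicate 1 left 557 genes higher and 891 lower (3.41% and 5.45% of the genes then tested, 528 and 842 of them with a symbol), and leaving out GFP-negative replicate 2 left 704 and 785 (4.27% and 4.77%, 673 and 744 of them with a symbol). Family counts or medians without each of these libraries are therefore given beside the full ones. Such a count has to be read against the smaller number of genes called in the same fit, not against 29.9% and 30.7%. With 1 GFP-negative library left, it shows only how far the calls depended on the other.

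**Figure D1:**
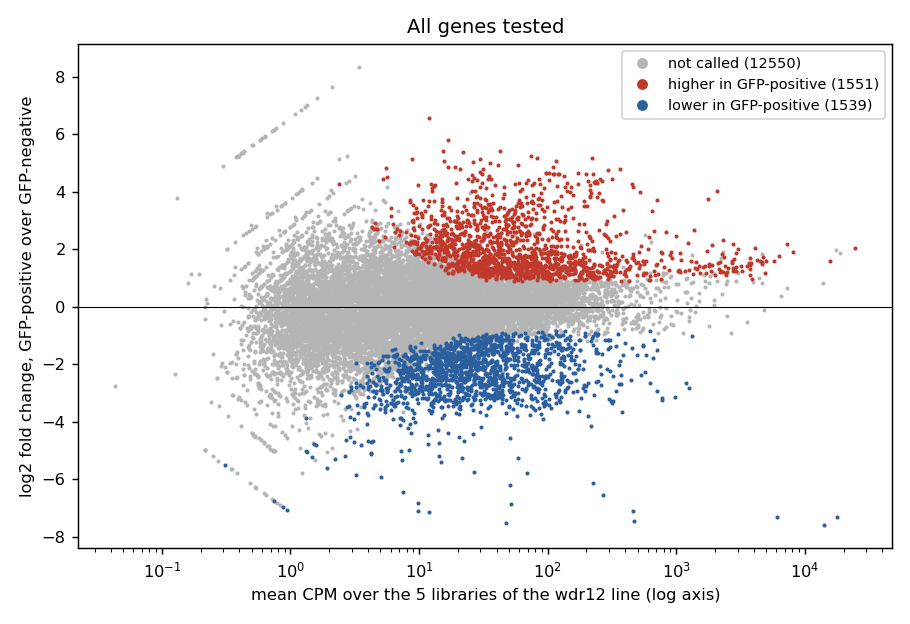
Log2 fold change of GFP-positive over GFP-negative cells (y axis) against the mean CPM over the 5 libraries (x axis, log scale) for 15640 genes, each a point. The 1551 genes called higher and the 1539 called lower stand above and below 0, and few genes at the lowest levels were called.

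The libraries held between 8511255 and 11580629 counts in the GFP-positive group and 3497101 and 5798458 counts in the GFP-negative group, so low genes were measured less precisely in GFP-negative cells. Pearson's r of log2(CPM + 1) across genes was 0.931 to 0.935 between GFP-positive libraries, 0.952 between the GFP-negative libraries and 0.79 to 0.86 between groups. The GFP-positive libraries were not equally far from the GFP-negative ones. Replicate 1 was the highest of the 3 GFP-positive libraries in 73.8% of the genes called higher, and replicate 3 was the highest of them in 77.9% of the genes called lower. In these sorted bulk samples, fewer cells of a type and less RNA of that gene per cell cannot be told apart.

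The transcript behind the reporter checked the sort. wdr12 had 99.3, 60.6 and 50.6 CPM in GFP-positive libraries, against 25.7 and 21.5 CPM in GFP-negative libraries. All 3 GFP-positive values lay above both GFP-negative values. The log2 fold change was 1.57 ± 0.38 (SE) with an edgeR adjusted p of 0.00786, which passed 0.05 neither without GFP-negative replicate 1 (adjusted p = 0.0626) nor without GFP-negative replicate 2 (adjusted p = 0.109). The markers of cycling cells rose together: mki67, pcna, top2a, mcm5 and ccnb1, 5 of 5 with a symbol, summed to 6220, 3710 and 2990 CPM in GFP-positive libraries and 221 and 315 CPM in GFP-negative libraries. Only 5 of the 15 listed neuroepithelial and progenitor markers had a tested symbol. Of the 7 genes tested under these, 4 were higher and 3 (pax6a, FABP7 and fabp7a) passed the test in neither direction. The 4 were both SOX2 genes, MSI1 (1 of 3) and wdr12 itself, which is no independent marker because its promoter drove the GFP. Neuronal markers, 12 of 15 of them with a tested symbol, went the other way. Of 16 genes 15 were lower, and the RNA-binding protein gene elavl3, an early neuronal marker, was not called. It had 2270, 1220 and 1590 CPM in GFP-positive libraries and 1140 and 1280 CPM in GFP-negative libraries, ranges that overlap. GFP-positive libraries thus held more of the cycling markers, both SOX2 genes and MSI1 (1 of 3). Amplifying progenitors divide too, so cycling markers alone do not single out neuroepithelial cells. The markers nestin and vimentin were not analysed here under those symbols.

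**Figure D2:**
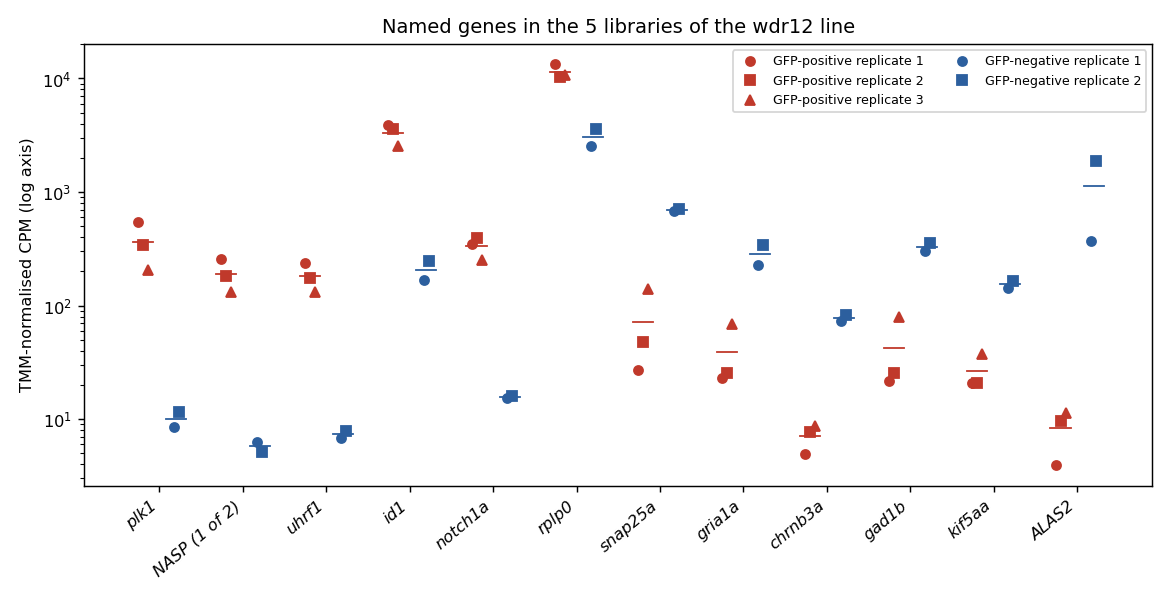
TMM-normalised CPM (log axis) of 12 genes in each library, with GFP-positive libraries left and GFP-negative libraries right of each gene's position, and horizontal lines at group means. No gene shown has overlapping groups: plk1 ran from 204 to 543 CPM in GFP-positive libraries and from 8.49 to 11.5 CPM in GFP-negative libraries, while chrnb3a ran from 4.88 to 8.75 CPM and from 72.9 to 83.3 CPM.

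Genes of the cell cycle were more abundant in GFP-positive cells. The division families held 306 tested genes, of which 201 were higher, 44 lower and 61 not called, with a median log2 fold change of 2.18; without GFP-negative replicate 1 the counts were 140 and 31, and without replicate 2 they were 145 and 24. The mitotic kinase plk1, which drives entry into and passage through mitosis, had 543, 339 and 204 CPM in GFP-positive libraries, against 8.49 and 11.5 CPM in GFP-negative libraries. That is a log2 fold change of 5.17 ± 0.52 (SE, edgeR adjusted p = 5.12e-05), and the groups did not overlap. The histone chaperone gene NASP (1 of 2) had 258, 181 and 132 CPM in GFP-positive libraries and 6.31 and 5.15 CPM in GFP-negative libraries, a log2 fold change of 5.06 ± 0.44 (adjusted p = 3.8e-05). By fold, the other leading genes with a symbol included the mitotic kinase genes melk (5.40) and nek2 (4.93), the thymidylate synthase gene tyms (5.15), the nuclease gene eme1 (5.05) and the helicase gene pif1 (4.86) on the log2 scale. All 5 held when either GFP-negative library was left out. Also among the 15 largest rises were cdca7a and KIF23 (1 of 2), given with their families. The others were FAM111A (5.37), zgc:112437 (5.42), armc1l (5.16), zgc:64116 (5.08), si:dkey-31e10.5 (4.99) and TRIM29 (18 of 44) (4.87), of which only TRIM29 lost its call without GFP-negative replicate 1 (adjusted p = 0.0801) or replicate 2 (adjusted p = 0.0514).

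DNA replication showed the change along its whole course. The MCM genes encode the helicase that unwinds the DNA, and 7 of 7 were higher with a median log2 fold change of 4.27, under each omission of a library as well. mcm2 had 1110, 600 and 494 CPM in GFP-positive libraries and 32.2 and 44.1 CPM in GFP-negative libraries (log2 fold change 4.27 ± 0.51, adjusted p = 8.84e-05). mcm4 had 173, 132 and 113 CPM in GFP-positive libraries and 7.61 and 6.87 CPM in GFP-negative libraries, and its SE was 0.45 around the same fold change. Genes of replication origins and forks were higher in 40 of 44 cases and lower in 0, median 2.71, with 26 and 28 higher without GFP-negative replicate 1 and replicate 2. pcna, the sliding clamp of the polymerases, had 3840, 2490 and 1990 CPM in GFP-positive libraries, against 167 and 249 CPM in GFP-negative libraries (log2 fold change 3.74 ± 0.43). cdc45, which activates the helicase, was higher by 4.44 ± 0.51 and gins1, part of the same complex, by 3.30 ± 0.38. In deoxynucleotide synthesis 7 of 7 genes were higher (5 without GFP-negative replicate 1 and 7 without replicate 2), among them both copies of rrm1, the large subunit of ribonucleotide reductase, at 3.86 ± 0.41 and 4.02 ± 0.46, and the dUTPase gene dut at 2.88 ± 0.35.

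Maintenance of DNA methylation moved with replication, while 1 de novo enzyme did not. In that family 6 of 7 genes were higher (5 with either GFP-negative library left out). uhrf1, which recognises half-methylated DNA and recruits the maintenance enzyme, had 238, 175 and 132 CPM in GFP-positive libraries and 6.74 and 7.90 CPM in GFP-negative libraries (log2 fold change 4.63 ± 0.42, adjusted p = 3.8e-05). The chromatin remodeller hells (4.66 ± 0.56) and its partner cdca7a (4.94 ± 0.58) rose by as much. dnmt1, the maintenance methyltransferase itself, had 629, 393 and 306 CPM in GFP-positive libraries and 111 and 124 CPM in GFP-negative libraries, a smaller log2 fold change of 1.92 ± 0.35. dnmt3aa, a de novo methyltransferase, was lower, at 16.9, 28.1 and 28.8 CPM in GFP-positive libraries, against 56.6 and 45.3 CPM in GFP-negative libraries. Its call (log2 fold change -1.05 ± 0.33, adjusted p = 0.0372) did not hold without GFP-negative replicate 1 (0.282), GFP-negative replicate 2 (0.107) or GFP-positive replicate 1 (0.0545).

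The machinery that segregates chromosomes rose almost as a block. Of 27 kinetochore and spindle checkpoint genes 26 were higher and 0 lower, median 3.79, and 25 were called with either GFP-negative library left out. nuf2, a subunit of the complex that binds microtubules to the kinetochore, had 302, 204 and 143 CPM in GFP-positive libraries and 7.61 and 10.8 CPM in GFP-negative libraries (log2 fold change 4.54 ± 0.43, adjusted p = 3.91e-05). aurkb, the kinase of the chromosomal passenger complex, was higher by 4.43 ± 0.51 and its partner INCENP by 3.72 ± 0.44. Condensin and cohesin genes were higher in 13 of 14 cases, median 3.06 (8 with either GFP-negative library left out). top2a, which untangles chromosomes, rose by 4.78 ± 0.49, and the condensin core genes smc2 and smc4 rose by 4.27 ± 0.49 and 3.98 ± 0.43. The cohesin gene rad21, which also acts between divisions, had 2560, 1250 and 1130 CPM in GFP-positive libraries and 701 and 662 CPM in GFP-negative libraries. Its log2 fold change of 1.27 ± 0.39 was not called without GFP-negative replicate 1 (adjusted p = 0.164), GFP-negative replicate 2 (0.196) or GFP-positive replicate 1 (0.108).

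Among cyclins, their kinases and E2F genes 18 of 27 were higher and 3 lower, median 2.49 (14 and 3 without GFP-negative replicate 1, 11 and 2 without replicate 2). The mitotic cyclin genes ccnb1 and ccnb2 and the phosphatase gene cdc25 were higher by 4.77 ± 0.50, 4.29 ± 0.47 and 4.15 ± 0.46. The called members that went the other way were cyclin I (ccni, -2.04 ± 0.31), the kinase gene CDK18 (-2.53 ± 0.45) and cdk19. ccni had 38.7, 24.3 and 36.7 CPM in GFP-positive libraries and 119 and 155 CPM in GFP-negative libraries, with no overlap. DNA repair genes were higher in 28 of 37 cases and lower in 2, median 1.97 (17 and 1 without GFP-negative replicate 1, 19 and 0 without replicate 2). The histone variant gene h2afx, whose phosphorylated product marks breaks, rose by 2.88 ± 0.35, the uracil glycosylase gene unga by 2.54 ± 0.34 and the Fanconi anaemia gene fanci by 2.84 ± 0.40. The lower members were TP53BP1 (-1.09 ± 0.31, adjusted p = 0.0227, and 0.389 without GFP-negative replicate 2) and MSH5 (-2.19 ± 0.70, adjusted p = 0.0381), which lost its call without each library other than GFP-positive replicate 3, with an adjusted p of 0.0843, 0.0595, 0.151 and 0.172 without GFP-positive replicates 1 and 2 and GFP-negative replicates 1 and 2.

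Centrosome and cilium genes were higher in 21 of 34 cases and lower in 1, median 1.77 (10 and 0 without GFP-negative replicate 1, 13 and 1 without replicate 2). The augmin complex, which nucleates microtubules within the spindle, led them. Its gene haus5 had 498, 340 and 197 CPM in GFP-positive libraries and 22.2 and 18.9 CPM in GFP-negative libraries, a log2 fold change of 4.07 ± 0.43 (adjusted p = 5.75e-05). haus4 rose by 3.91 ± 0.53 and haus1 by 3.02 ± 0.44. aspm, a spindle pole gene whose human counterpart is mutated in microcephaly, rose by 2.53 ± 0.38, at 588, 349 and 291 CPM in GFP-positive libraries and 55.7 and 86.2 CPM in GFP-negative libraries. cep170b fell by 1.60 on the log2 scale (SE 0.37), a call not held without GFP-negative replicate 1 (adjusted p = 0.0922).

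**Figure D3:**
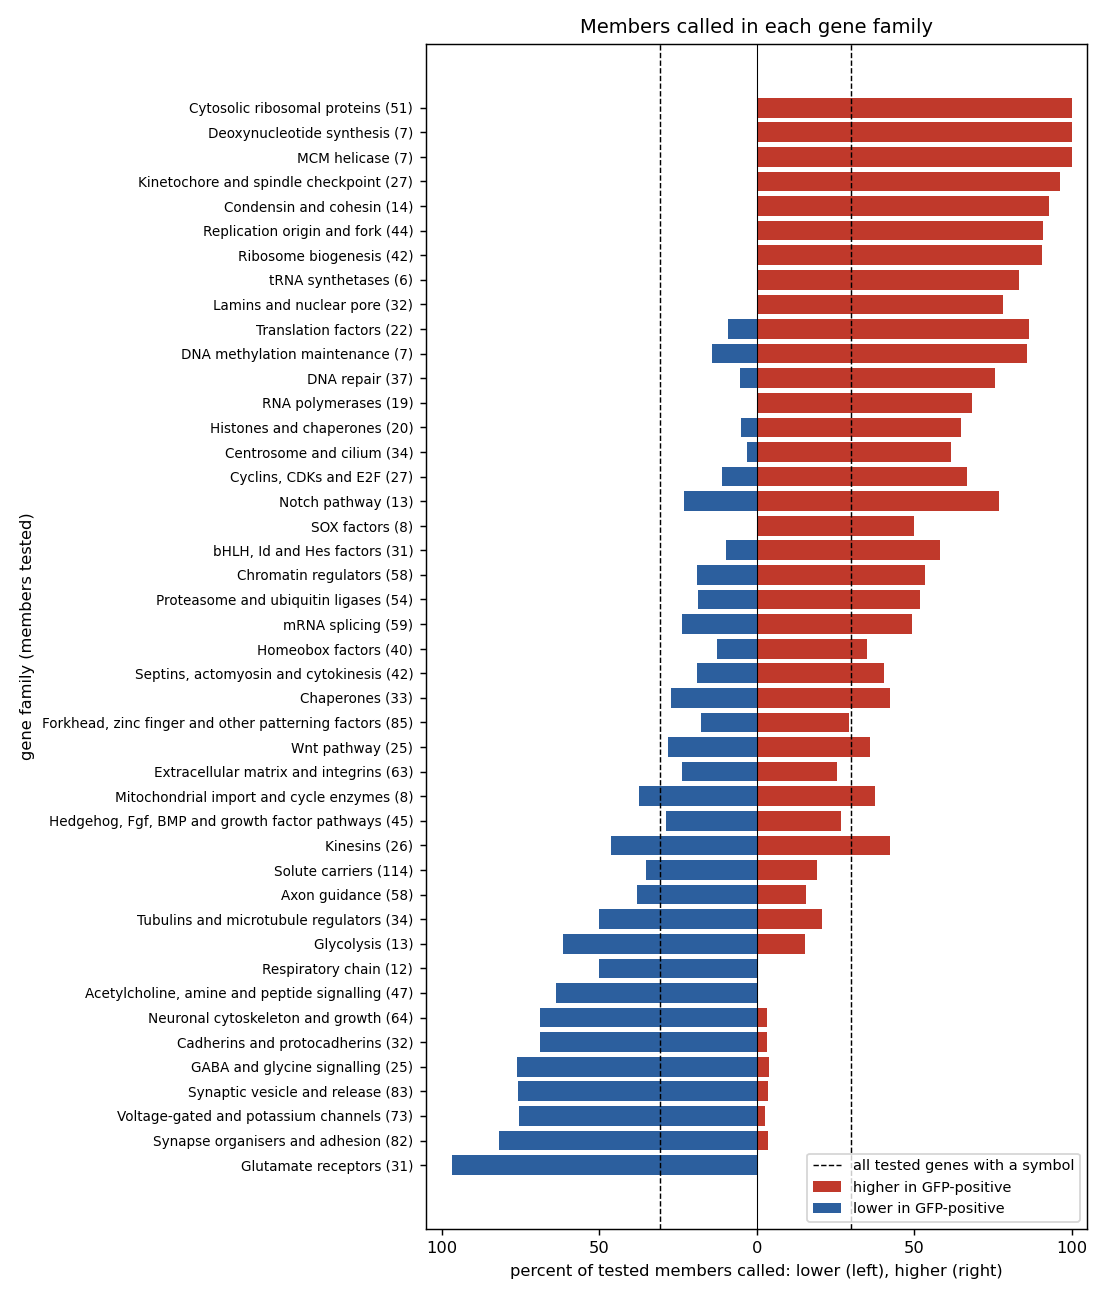
Percent of tested members called higher (right, red) or lower (left, blue) in GFP-positive cells for each gene family with at least 6 tested members, other than lists of other cell types and of stress genes, ordered by net share. Dashed lines give the shares over all tested genes with a symbol (29.9% higher, 30.7% lower).

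Several families of the cytoskeleton split between the groups. Tested genes with a symbol did so as a whole, with 29.9% higher and 30.7% lower, so a split alone is no result about a family. The roles of the members were set beside their directions with the values known. Kinesins, motors that move along microtubules, counted 11 higher and 12 lower of 26 (11 and 9 without GFP-negative replicate 1, 10 and 7 without replicate 2). Those that rose act in the spindle or in cytokinesis, with 1 exception, kif7, a kinesin of the cilium and of Hedgehog signalling. kif2c had 492, 290 and 177 CPM in GFP-positive libraries and 13.1 and 12.9 CPM in GFP-negative libraries (log2 fold change 4.62 ± 0.46). KIF23 (1 of 2) was higher by 4.86 ± 0.45, kif20a by 4.32 ± 0.53, kif22 by 3.89 ± 0.53, kif14 by 3.29 ± 0.56 and kif18a by 3.19 ± 0.48. Among those that fell were motors of axonal transport. kif5aa had 20.6, 20.9 and 37.6 CPM in GFP-positive libraries and 144 and 166 CPM in GFP-negative libraries (log2 fold change -2.56 ± 0.33, adjusted p = 0.000145). kif1ab had 72.8, 92.9 and 195 CPM in GFP-positive libraries and 478 and 598 CPM in GFP-negative libraries (-2.16 ± 0.37), and KIFC2 fell by 2.56 on the log2 scale (SE 0.39). The other 3 kinesins, kif13ba (-1.18), kif26bb (-0.51) and kif26ab (-0.25), were not called.

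Tubulins and microtubule regulators also held members in both directions, with 7 higher and 17 lower of 34 (3 and 13 without GFP-negative replicate 1, 4 and 9 without replicate 2). The spindle proteins prc1a (4.25 ± 0.54) and tacc3 (3.14 ± 0.43) rose. Among tubulin genes, tuba8l4 had 4890, 4250 and 2920 CPM in GFP-positive libraries and 840 and 914 CPM in GFP-negative libraries (log2 fold change 2.20 ± 0.35). tubb5 (2 of 2) was not called, at 2110, 1650 and 2170 CPM in GFP-positive libraries and 954 and 1500 CPM in GFP-negative libraries (adjusted p = 0.173). Tubulin genes are near-identical copies, so short reads may be shared among them. Microtubule-associated proteins of axons and dendrites fell, map1aa by 3.05 (SE 0.43) and map2 by 2.81 (SE 0.42) on the log2 scale, as did stmn2a, a neuronal stathmin, by 2.40 (SE 0.39). In the septin, actomyosin and cytokinesis family 17 of 42 were higher and 8 lower (9 and 5 without GFP-negative replicate 1, 8 and 5 without replicate 2). anln, the anillin of the cleavage furrow, had 53.8, 46.1 and 24.6 CPM in GFP-positive libraries and 1.31 and 2.06 CPM in GFP-negative libraries (log2 fold change 4.59 ± 0.59). The cytokinesis regulators racgap1 (3.68 ± 0.54) and ect2 (4.04 ± 0.75) rose with it. CIT, a kinase gene of the same family, went the other way (log2 fold change -2.33, edgeR adjusted p = 0.000943). Septins divided, with sept10 higher (2.98 ± 0.49) and sept5b, a septin of synaptic vesicles, lower (-2.13 ± 0.36).

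Genes that make ribosomes and proteins were higher as a group but by smaller factors. The 51 cytosolic ribosomal protein genes with a symbol were called higher in 51 cases, median log2 fold change 1.43, and every GFP-positive library lay above every GFP-negative library in all 51, against 44.0% of tested genes with a symbol. Their summed level was 231000, 168000 and 202000 CPM in GFP-positive libraries, against 57100 and 86500 CPM in GFP-negative libraries. This count depended on the setting: 5 were called without GFP-negative replicate 1, 35 without GFP-negative replicate 2, 32 with the 5 libraries of the wdr12 line fitted alone and 30 with the replicate number as a block, while the median stayed between 1.15 and 1.79 in each setting tried. rplp0, a protein of the ribosomal stalk, had 13400, 10400 and 10800 CPM in GFP-positive libraries and 2550 and 3590 CPM in GFP-negative libraries (log2 fold change 1.91 ± 0.34, adjusted p = 0.00109). rpsa and rpl15 were higher by 2.03 ± 0.34 and 1.88 ± 0.34. Ribosomal protein genes have processed copies in many genomes, and how the counting divided shared reads is not given in the sources used here.

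Ribosome biogenesis, the process in which wdr12 acts, counted 38 of 42 genes higher and 0 lower, median 1.44 (10 without GFP-negative replicate 1 and 14 without replicate 2), and in all 42 every GFP-positive library lay above both GFP-negative libraries, against 44.0% of tested genes with a symbol. fbl, the methyltransferase of the nucleolus, had 200, 147 and 99.1 CPM in GFP-positive libraries and 28.3 and 30.9 CPM in GFP-negative libraries (log2 fold change 2.33 ± 0.36, adjusted p = 0.00041). Its partners in the box C/D particle, nop58 and nop56, rose by 2.32 ± 0.38 and 1.88 ± 0.34, while utp15, which takes part in small-subunit assembly, gained 2.33 ± 0.37. RNA polymerase and initiation genes were higher in 13 of 19 cases and lower in 0 (1 without GFP-negative replicate 1 and 6 without replicate 2), led by polr2h at 2.57 ± 0.39. Translation factors were higher in 19 of 22 cases and lower in 2 (3 and 2 without GFP-negative replicate 1, 13 and 2 without replicate 2). The 2 exceptions were paralogues of elongation factors. eef1a1a had 7.04, 16.3 and 40.8 CPM in GFP-positive libraries and 192 and 259 CPM in GFP-negative libraries (log2 fold change -3.40 ± 0.51), and eef2b had 21.7, 21.7 and 50.7 CPM and 123 and 165 CPM in those groups (-2.20 ± 0.37). The gene named EEF1A, in contrast, had 26100, 19300 and 19400 CPM in GFP-positive libraries and 6240 and 8100 CPM in GFP-negative libraries (1.59 ± 0.34, adjusted p = 0.00393, and 0.0729 without GFP-negative replicate 1). Of 6 tRNA synthetase genes 5 were higher (1 without GFP-negative replicate 1, 2 without replicate 2), with aimp1, a scaffold of the synthetase complex, at 1.77 ± 0.34.

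Genes of protein folding and breakdown went both ways, as did tested genes with a symbol as a whole (29.9% higher, 30.7% lower). Chaperones counted 14 higher and 9 lower of 33. The chaperonin of the cytosol folds actin and tubulin, and its genes supplied 8 of the 14 (7 cct genes and tcp1): cct3 was at 1.59 ± 0.33 and cct7 at 1.55 ± 0.30, with 1020, 722 and 642 CPM for cct3 in GFP-positive libraries and 223 and 305 CPM in GFP-negative libraries. Without GFP-negative replicate 1 none of these was called (adjusted p = 0.0741 for cct3, 0.0519 for cct7 and 0.123 for tcp1), nor was any other chaperone called higher, and 7 were without replicate 2 (tcp1 not among them, at 0.0646), while 8 and 6 were called lower. DNAJB5 (1 of 2), a co-chaperone of heat shock protein 70, fell by 3.60 (SE 0.44), at 5.85, 18.2 and 20.2 CPM in GFP-positive libraries and 199 and 158 CPM in GFP-negative libraries. The heat shock genes were uneven between GFP-negative libraries. HSP90AA1 (2 of 2) had 131, 110 and 95.7 CPM in GFP-positive libraries and 345 and 1110 CPM in GFP-negative libraries (-2.69 ± 0.44), and hsp70.3 had 14.7, 50.6 and 9.26 CPM and 15.4 and 609 CPM in those groups. The call of hsp70.3 (log2 fold change -3.65 ± 0.97, adjusted p = 0.0146) rested on GFP-negative replicate 2, without which the fold change was 0.68 (adjusted p = 0.803), and was lost without GFP-positive replicate 1 (0.0599). Proteasome and ubiquitin ligase genes were higher in 28 of 54 cases and lower in 10 (3 and 4 without GFP-negative replicate 1, 10 and 3 without replicate 2). ube2c and fbxo5, a ubiquitin-conjugating enzyme and an inhibitor of the anaphase-promoting complex, rose by 4.30 ± 0.48 and 4.28 ± 0.59. Subunits of the proteasome rose less, as psma5 (1.23 ± 0.31) and psmd1 (1.25 ± 0.31), and neither was called without GFP-negative replicate 1 (adjusted p = 0.1 and 0.147) or replicate 2 (0.0993 and 0.0547).

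Some nuclear families held paralogues that changed in opposite directions, among tested genes with a symbol of which 29.9% were higher and 30.7% lower. Histones and their chaperones were higher in 13 of 20 cases and lower in 1, h2afy, the macroH2A variant (-1.91 ± 0.34); without GFP-negative replicate 1 and replicate 2 the counts were 3 and 5 higher, each with 1 lower. Of the 2 genes carrying the symbol h3f3a, ENSORLG00000007686 had 2930, 1080 and 1440 CPM in GFP-positive libraries and 285 and 491 CPM in GFP-negative libraries (log2 fold change 2.23 ± 0.46, adjusted p = 0.00296, and 0.0657 without GFP-negative replicate 1). The other, ENSORLG00000008673, overlapped between groups with 3000, 1450 and 1750 CPM and 1730 and 1800 CPM (adjusted p = 0.756). Chromatin regulators were higher in 31 of 58 cases and lower in 11 (7 and 5 without GFP-negative replicate 1, 15 and 7 without replicate 2). ezh2, the Polycomb methyltransferase of dividing cells, had 366, 140 and 168 CPM in GFP-positive libraries and 51.3 and 74.9 CPM in GFP-negative libraries (log2 fold change 1.83 ± 0.41, adjusted p = 0.00536, and 0.098 without GFP-negative replicate 1), whereas its paralogue ezh1 had 23.5, 31.7 and 29.6 CPM and 112 and 91 CPM in those groups (-1.84 ± 0.32, adjusted p = 0.001). Among histone deacetylases hdac1 (1 of 2) rose by 1.75 ± 0.32 and hdac5 fell by 2.24 (SE 0.45). The heterochromatin protein gene cbx3a rose by 3.09 ± 0.40 and the histone methyltransferase gene ehmt1a by 2.59 ± 0.42, while PRMT8 (1 of 2), an arginine methyltransferase known from the mammalian brain, fell by 3.28 (SE 0.45). The remodelling ATPase had 2 copies that went opposite ways, SMARCA4 (1 of 2) at -2.07 ± 0.39 and smarca4 at 1.13 ± 0.34, the second not called without GFP-negative replicate 1 (adjusted p = 0.341) or GFP-positive replicate 1 (0.0747).

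Nuclear envelope and pore genes were higher in 25 of 32 cases and lower in 0, median 1.56 (10 without GFP-negative replicate 1, 14 without replicate 2). The importin gene kpna2 led with 1130, 616 and 468 CPM in GFP-positive libraries and 35.2 and 47.2 CPM in GFP-negative libraries (log2 fold change 4.16 ± 0.46), ahead of nup37 (2.5 ± 0.34) and tmpob, of the lamina (1.93 ± 0.30). Splicing genes were higher in 29 of 59 cases and lower in 14 (6 and 9 without GFP-negative replicate 1, 16 and 7 without replicate 2). Among those that rose were core components of the spliceosome, sf3b3 (1.83 ± 0.32), snrpd3 (1.8 ± 0.35) and snrpf (1.94 ± 0.39), and the helicase gene ddx39aa (2 of 2) at 1.79 ± 0.34. Among those that fell were regulators of alternative splicing or RNA stability known from neurons. elavl2 had 8.89, 7.15 and 12.6 CPM in GFP-positive libraries and 59 and 76.8 CPM in GFP-negative libraries (-2.83 ± 0.34, adjusted p = 8.82e-05). CELF6 (-2.61 ± 0.37), celf4 (-2.05 ± 0.33), rbfox2 (2 of 2) (-1.77 ± 0.30) and rbfox3l (-1.74 ± 0.32) fell with it. ptbp1a, a repressor of neuronal exons in mammals, went the opposite way, with 28.1, 35.6 and 25.5 CPM in GFP-positive libraries and 6.09 and 1.55 CPM in GFP-negative libraries (2.98 ± 0.73), which missed the threshold without GFP-negative replicate 2 (adjusted p = 0.125).

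**Figure D4:**
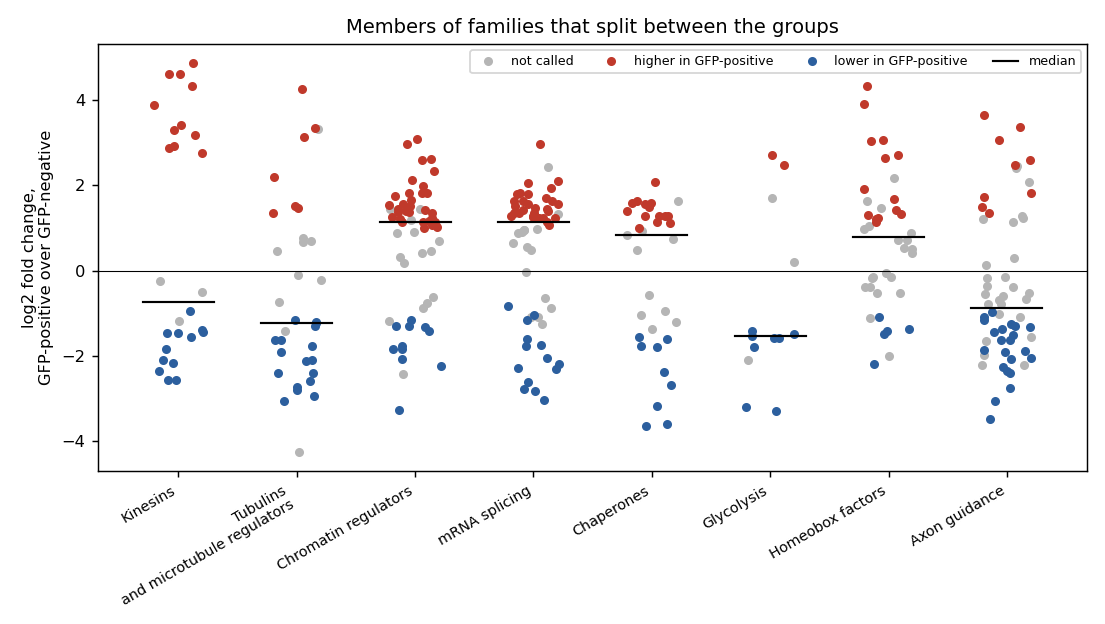
Log2 fold change of GFP-positive over GFP-negative cells for the tested members of 8 gene families, 1 point per gene, with the family median as a black line. Of 26 kinesins 11 were called higher, from 2.76 upward, 12 were called lower, from -0.95 downward, and 3 were not called, from -1.18 to -0.25. Over all tested genes with a symbol 29.9% were called higher and 30.7% lower.

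Energy metabolism went the other way. Of 12 respiratory chain genes with a symbol 6 were lower and 0 higher, median -1.05 (2 without GFP-negative replicate 1, 1 without GFP-negative replicate 2, 3 without GFP-positive replicate 2, 8 without GFP-positive replicate 1 or 3, and 9 with RLE size factors or DESeq2). uqcrb, of complex III, had 210, 126 and 273 CPM in GFP-positive libraries and 619 and 689 CPM in GFP-negative libraries (log2 fold change -1.69 ± 0.35, adjusted p = 0.00335). Glycolysis genes were lower in 8 of 13 cases and higher in 2, median -1.54 (7 and 1 without GFP-negative replicate 1, 4 and 1 without replicate 2). Both copies of the neuronal enolase fell, eno2 with 10.1, 18.3 and 43.1 CPM in GFP-positive libraries and 179 and 262 CPM in GFP-negative libraries (-3.21 ± 0.47), and ENO2 (2 of 2) by 3.30 (SE 0.43). Among 8 mitochondrial import and folate enzymes 3 rose and 3 fell (1 and 0 without GFP-negative replicate 1, 2 and 1 without replicate 2). shmt1, the cytosolic enzyme that passes a carbon unit from serine to folate for thymidylate synthesis, rose most clearly, with 257, 161 and 142 CPM in GFP-positive libraries and 12.4 and 16.7 CPM in GFP-negative libraries (3.68 ± 0.47, adjusted p = 0.000127).

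Transcription factors formed the next group. Over all factor families, 61 of 164 factors were higher and 23 lower, median 1.01, against 29.9% and 30.7% of tested genes with a symbol. The counts were 30 and 10 without GFP-negative replicate 1 and 41 and 5 without replicate 2. Of 8 SOX genes 4 were higher (1 without GFP-negative replicate 1, 4 without replicate 2). The symbol SOX2, a factor that maintains neural stem cells, stands for 2 genes. ENSORLG00000001780 had 457, 457 and 288 CPM in GFP-positive libraries and 21.1 and 30.4 CPM in GFP-negative libraries (log2 fold change 3.96 ± 0.40, adjusted p = 5.31e-05). ENSORLG00000011685 had 192, 179 and 186 CPM and 43.1 and 64.2 CPM in those groups (1.79 ± 0.38, adjusted p = 0.00388, and 0.0819 without GFP-negative replicate 1). Both copies were separate between groups, and the first changed more. sox9b (1.70 ± 0.35) and SOX11 (1.45 ± 0.30) also rose, and both lost their call without GFP-negative replicate 1 (adjusted p = 0.0646 and 0.0658).

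Basic helix-loop-helix, Id, Hes and Myc genes were higher in 18 of 31 cases and lower in 3, median 2.31 (13 and 0 with either GFP-negative library left out). id1, an inhibitor of proneural factors, had 3880, 3600 and 2520 CPM in GFP-positive libraries and 168 and 245 CPM in GFP-negative libraries (log2 fold change 4.02 ± 0.41, adjusted p = 5.12e-05). Its relative id4 did not follow, at 298, 153 and 254 CPM and 269 and 256 CPM in those groups (adjusted p = 0.835). The Hes/Her repressors rose together: her4.4 had 1440, 1210 and 696 CPM in GFP-positive libraries and 75.1 and 96.5 CPM in GFP-negative libraries (3.70 ± 0.42), and her9, her12, her13, her8.2 and hes1 were higher by 3.37 ± 0.45, 3.36 ± 0.47, 3.32 ± 0.48, 3.0 ± 0.54 and 2.37 ± 0.38. mycb (2.86 ± 0.45) and mycn (2.84 ± 0.53), factors of growth, rose as well. Not all members were progenitor factors: neurod4, a proneural gene, had 152, 117 and 81.4 CPM in GFP-positive libraries and 12.2 and 6.53 CPM in GFP-negative libraries (3.65 ± 0.42). The members called lower were id2a, tal1 (2 of 2) (-1.22 ± 0.33) and npas4a (-3.13 ± 0.84), a gene induced by neuronal activity, and none was called with either GFP-negative library left out (for npas4a an adjusted p of 0.0951 and 0.0541, for tal1 0.0512 and 0.159).

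Homeobox genes, 40 of 41 of them tested, were higher in 14 cases and lower in 5, median 0.79 (5 and 4 without GFP-negative replicate 1, 9 and 1 without replicate 2). The share higher was not far above the 29.9% of tested genes with a symbol. Within the family the largest rises were those of gsh-1, both DBX1 genes and pax3b. Other members did not follow: pax6a and emx2 were not called (edgeR adjusted p = 0.652 and 0.56). Genes with the symbol msxb went both ways, ENSORLG00000016741 lower (log2 fold change -1.41) and ENSORLG00000009194 higher (2.71). gsh-1 had 592, 305 and 272 CPM in GFP-positive libraries and 12.2 and 26.6 CPM in GFP-negative libraries (log2 fold change 4.32 ± 0.51, adjusted p = 7.86e-05). pax3b, a factor of the dorsal neural tube, had 75.6, 89.6 and 70.1 CPM and 9.36 and 9.27 CPM in those groups (3.07 ± 0.37), and both DBX1 copies rose, by 3.90 ± 0.71 and 3.04 ± 0.52. pou3f2b, a factor of neural progenitors, rose by 1.92 ± 0.31. satb1a fell by 2.20 (SE 0.41), and pou4f2, a factor of retinal ganglion cells and other projection neurons, fell by 1.48 (SE 0.32), a call at the threshold without GFP-negative replicate 2 (adjusted p = 0.0502). The remaining factors counted 25 of 85 higher and 15 lower (11 and 6 without GFP-negative replicate 1, 15 and 4 without replicate 2). The share higher was close to the 29.9% of tested genes with a symbol. They included tll, a nuclear receptor of neural stem cells, with 1490, 882 and 678 CPM in GFP-positive libraries and 88.1 and 116 CPM in GFP-negative libraries (3.32 ± 0.41). foxn4, which acts in retinal and spinal progenitors, had 294, 184 and 117 CPM and 4.13 and 11.8 CPM in those groups (4.61 ± 0.60). prdm12b and PRDM12 (2 of 2) rose by 3.75 ± 0.66 and 4.20 ± 0.80, and myt1la, a factor that holds neurons in their differentiated state in mammals, fell by 1.83 (SE 0.34).

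The Notch family held 13 tested members, of which 10 rose and 3 fell, median 2.28. Without GFP-negative replicate 1 the counts were 10 and 3, and without replicate 2 they were 8 and 3. Members were found by symbol, and symbols came only from the authors' lists of changed genes. That every member was called is therefore no result about the whole pathway. The shares to set beside the Notch counts are 29.9% called higher and 30.7% called lower, taken over all 4658 tested genes that carry a symbol. Among receptors notch1a had 348, 393 and 251 CPM in GFP-positive libraries and 15.4 and 16 CPM in GFP-negative libraries (log2 fold change 4.39 ± 0.39, adjusted p = 3.8e-05), and notch3 and notch1b rose by 2.94 ± 0.32 and 2.77 ± 0.41. Among ligands dlb had 311, 238 and 159 CPM and 11.3 and 18.2 CPM in those groups (3.99 ± 0.44), and dla (4.45 ± 0.71) and jag1b (2.24 ± 0.43) were higher too. So were lfng, a sugar transferase that tunes receptor and ligand (2.46 ± 0.36), and the feedback gene nrarpb (2.28 ± 0.34). The called members that fell were non-canonical ligand genes, DLK1 (-2.0 ± 0.39) and dner (-2.55 ± 0.53), and DTX4 (2 of 2), a ligase gene whose copy DTX4 (2 of 3) rose.

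Wnt pathway genes were higher in 9 of 25 cases and lower in 7, close to the shares over genes with a symbol (5 and 3 without GFP-negative replicate 1, 5 and 4 without replicate 2). WNT7A had 122, 91.9 and 84.8 CPM in GFP-positive libraries and 6.31 and 15.5 CPM in GFP-negative libraries (log2 fold change 3.18 ± 0.42), the receptor gene fzd10 rose by 2.61 ± 0.34 and the secreted antagonist gene sfrp5 by 3.70 ± 0.60. dkk3a, a member of the Dickkopf family of secreted proteins, had 7.69, 6.92 and 16.9 CPM and 87.2 and 88.4 CPM in those groups (-3.07 ± 0.41), and vangl1, of planar polarity, fell by 2.11 (SE 0.43). ctnnb1, encoding beta-catenin, overlapped between groups (adjusted p = 0.444). Hedgehog, Fgf, BMP and other growth factor genes counted 12 higher and 13 lower of 45, also close to those shares (7 and 7 without GFP-negative replicate 1, 6 and 8 without replicate 2). Components for receiving Hedgehog rose, with the co-receptor gene boc at 258, 248 and 175 CPM in GFP-positive libraries and 21.3 and 21.6 CPM in GFP-negative libraries (3.40 ± 0.39), smo at 2.73 ± 0.53 and the transcription factor gene gli2b at 2.87 ± 0.36. mdkb, a midkine, had 3890, 2520 and 3060 CPM and 901 and 880 CPM in those groups (1.83 ± 0.33), whereas its relative ptn was not called (adjusted p = 0.245). Neurotrophin and GDNF receptors fell, ntrk2b with 8.02, 12.8 and 11.8 CPM in GFP-positive libraries and 90.7 and 87.2 CPM in GFP-negative libraries (-3.03 ± 0.33) and gfra1a by 2.88 (SE 0.35), as did the intracellular Fgf homologues fgf12a (-3.27 ± 0.47) and fgf14 (-3.17 ± 0.43), which bind sodium channels.

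Genes of neuronal function were lower in GFP-positive cells in most cases. The neuron families held 495 tested genes, of which 352 were lower, 21 higher and 122 not called, median log2 fold change -2.23, with 243 and 11 called without GFP-negative replicate 1 and 226 and 12 without replicate 2. Electrical signalling fell broadly. Of 73 voltage-gated and potassium channel genes 55 were lower and 2 higher, median -2.63 (43 lower and 3 higher without GFP-negative replicate 1, 40 and 1 without replicate 2). kcnc2, a channel of fast-spiking neurons, had 9.54, 15.5 and 18.8 CPM in GFP-positive libraries and 132 and 143 CPM in GFP-negative libraries (log2 fold change -3.23 ± 0.35, adjusted p = 6.38e-05). The sodium channel genes scn1bb and scn1lab fell by 2.39 (SE 0.30) and 2.60 (SE 0.38), and the calcium channel gene cacna1c by 3.36 (SE 0.41). The 2 that rose were potassium channel genes outside the voltage-gated group: kcnk5a, a two-pore channel, had 67.4, 37.1 and 21.6 CPM in GFP-positive libraries and 3.48 and 3.43 CPM in GFP-negative libraries (3.60 ± 0.53, adjusted p = 0.000278), and kcnj2a, an inward rectifier, was at 2.69 ± 0.83 and lost its call without GFP-negative replicate 2 (adjusted p = 0.282), GFP-positive replicate 2 (0.0571) or GFP-positive replicate 3 (0.269).

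Genes of transmitter signalling were lower more often than higher. Of 31 glutamate receptor genes 30 were lower and 0 higher, median -2.53 (21 and 22 lower without GFP-negative replicate 1 and replicate 2), and every GFP-positive library lay below both GFP-negative libraries in 31 of 31, against 41.1% of tested genes with a symbol. The AMPA receptor gene gria1a had 22.9, 25.3 and 68.2 CPM in GFP-positive libraries and 227 and 342 CPM in GFP-negative libraries (log2 fold change -2.88 ± 0.42). The NMDA receptor gene grin2aa fell by 3.13 (SE 0.44) and the metabotropic receptor gene grm8a by 3.20 (SE 0.38). GABA and glycine genes were lower in 19 of 25 cases and higher in 1, median -2.52 (15 lower with either GFP-negative library left out). gad1b, which makes GABA, had 21.5, 25.5 and 79.9 CPM in GFP-positive libraries and 304 and 352 CPM in GFP-negative libraries (-2.96 ± 0.47). slc6a9, the glycine transporter of glia and progenitors, was the 1 that rose, with 106, 130 and 126 CPM and 25.9 and 24.2 CPM in those groups (2.27 ± 0.32). In acetylcholine, amine and peptide signalling 30 of 47 genes were lower and 0 higher, median -2.92 (22 with either GFP-negative library left out). chrnb3a, a nicotinic receptor subunit, had 4.88, 7.61 and 8.75 CPM in GFP-positive libraries and 72.9 and 83.3 CPM in GFP-negative libraries (-3.46 ± 0.34, adjusted p = 3.91e-05). The vesicular acetylcholine transporter gene SLC18A3 fell by 4.00 (SE 0.51), the serotonin receptor gene htr1aa by 3.06 (SE 0.36) and the neuropeptide gene cart2 (2 of 2) by 3.72 (SE 0.54).

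Synaptic vesicle genes were lower in 63 of 83 cases and higher in 3, median -2.28 (44 and 0 without GFP-negative replicate 1, 39 and 0 without replicate 2). snap25a, of the fusion complex, had 27.3, 47.6 and 141 CPM in GFP-positive libraries and 679 and 711 CPM in GFP-negative libraries (log2 fold change -3.27 ± 0.50, adjusted p = 0.00036). sncb, a synuclein, had 104, 92.6 and 335 CPM and 1420 and 1940 CPM in those groups (-3.25 ± 0.48). The vesicle glutamate transporter genes slc17a6a and slc17a6b fell by 2.34 (SE 0.36) and 2.40 (SE 0.35), the endocytic genes amph and sh3gl2 by 2.70 (SE 0.36) and 3.17 (SE 0.44). ATP6V0C (2 of 2), a subunit gene of a proton pump, fell too, with 55.5, 77.6 and 108 CPM in GFP-positive libraries and 548 and 506 CPM in GFP-negative libraries (-2.71 ± 0.32). Other subunits of the pump are not given here. The members that rose were sh3gl1a (2.34 ± 0.63), rab3da (1.82 ± 0.51) and stxbp3, and 0 members rose without GFP-negative replicate 1 or replicate 2. The adjusted p was 0.182 and 0.0558 for sh3gl1a and 0.164 and 0.115 for rab3da with those libraries left out, 0.0711 for sh3gl1a without GFP-positive replicate 2 and 0.0782 for rab3da without GFP-positive replicate 1, and 1 member rose with either of these GFP-positive libraries left out. Genes that organise synapses were lower in 67 of 82 cases and higher in 3, median -2.12 (43 and 1 without GFP-negative replicate 1, 37 and 2 without replicate 2). SLITRK4, an adhesion protein of synapses, had 12.4, 15.2 and 19.2 CPM in GFP-positive libraries and 97 and 107 CPM in GFP-negative libraries (-2.71 ± 0.30), nrxn1a, a presynaptic neurexin, fell by 2.24 (SE 0.39) and the kinase gene camk2d2 by 2.34 (SE 0.30). CNTN3 (2 of 2), a contactin, rose instead, at 230, 183 and 190 CPM and 56.4 and 61.5 CPM in those groups (1.77 ± 0.31).

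Cadherins and protocadherins were lower in 22 of 32 cases and higher in 1, median -1.85 (13 and 0 with either GFP-negative library left out). CDH8, a neuronal cadherin, had 30.2, 20.3 and 46.3 CPM in GFP-positive libraries and 143 and 176 CPM in GFP-negative libraries (log2 fold change -2.31 ± 0.34), and pcdh7b fell by 2.0 (SE 0.31). cdh4 was the 1 that rose (1.5 ± 0.38), not called without GFP-negative replicate 1 (adjusted p = 0.157) or replicate 2 (0.0655). Axon guidance genes counted 9 higher and 22 lower of 58 (4 and 11 without GFP-negative replicate 1, 6 and 12 without replicate 2). Over tested genes with a symbol the shares were 29.9% higher and 30.7% lower. Ephrin ligands were among the axon guidance genes that rose: efna3b had 747, 616 and 590 CPM in GFP-positive libraries and 154 and 215 CPM in GFP-negative libraries (1.82 ± 0.32). Of 10 Eph receptor genes 6 fell, 1 (epha4l) rose and 3 were not called. epha6 had 1.84, 6.11 and 18.1 CPM and 77 and 66.6 CPM in those groups (-3.05 ± 0.58). Ephrins and their Eph receptors map retinal axons onto the tectum in vertebrates. The semaphorin gene sema4e (3.07 ± 0.41) and the plexin receptor gene plxnb1a (2.48 ± 0.36) rose and sema7a fell by 3.49 (SE 0.47). In the neuronal cytoskeleton and growth family 44 of 64 genes were lower and 2 higher, median -1.97 (31 and 26 lower without GFP-negative replicate 1 and replicate 2). RGS7, a regulator of G protein signalling, and the calcineurin gene ppp3cb fell by 2.97 (SE 0.37) and 2.72 (SE 0.33). The 2 that rose were marcksa (1.72 ± 0.30) and ank1, with 2760, 2010 and 1420 CPM in GFP-positive libraries and 263 and 390 CPM in GFP-negative libraries (2.66 ± 0.38), while ANK1 (2 of 2) fell.

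Of 114 solute carrier genes 22 were higher and 40 lower, median -0.68 (6 and 23 without GFP-negative replicate 1, 9 and 26 without replicate 2). The shares to set beside these solute carrier counts are 29.9% higher and 30.7% lower over tested genes with a symbol. The GABA transporter gene slc6a1a had 114, 111 and 327 CPM in GFP-positive libraries and 1550 and 1770 CPM in GFP-negative libraries (log2 fold change -3.17 ± 0.43). In the other direction the nucleoside transporter gene slc29a2 had 205, 171 and 152 CPM and 14.6 and 13.6 CPM in those groups (3.65 ± 0.39, adjusted p = 6.3e-05), and both chains of an amino acid exchanger rose, SLC7A5 by 2.58 ± 0.41 and slc3a2a by 1.89 ± 0.32. Matrix and integrin genes were higher in 16 of 63 cases and lower in 15 (9 and 6 without GFP-negative replicate 1, 8 and 7 without replicate 2). Both counts lay below the shares over tested genes with a symbol (29.9% and 30.7%). Basement membrane components and their receptors were among those that rose: itga7, an integrin that binds laminin, had 157, 149 and 113 CPM in GFP-positive libraries and 19.8 and 22.5 CPM in GFP-negative libraries (2.72 ± 0.33), and itgb1a, itgb8 and the laminin gene lama2 were higher by 2.12 ± 0.43, 2.56 ± 0.47 and 2.13 ± 0.41. tnc, encoding tenascin C, fell by 1.92 (SE 0.39), adam23a by 2.0 (SE 0.35) and the proteoglycan gene spock2 by 1.82 (SE 0.38).

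Lists of genes of other cell types were compared between the 2 gates as well, but which cells each gate held was not tested. Red blood cell genes were far lower in GFP-positive cells: 13 of 17 fell, 1 (ank1) rose, median -5.77 (11 lower with either GFP-negative library left out). One gene with the globin symbol GB, ENSORLG00000003046, had 51, 143 and 344 CPM in GFP-positive libraries and 12000 and 57200 CPM in GFP-negative libraries (log2 fold change -7.59 ± 0.81, adjusted p = 6.17e-05). ALAS2, which starts haem synthesis, had 3.90, 9.69 and 11.3 CPM and 369 and 1890 CPM in those groups (-7.09 ± 0.69), and GATA-1, the erythroid master factor, had 0.65, 2.65 and 1.8 CPM and 73.5 and 177 CPM (-6.20 ± 0.67). Globin genes took 0.0115%, 0.0513% and 0.0844% of counts in GFP-positive libraries and 4.27% and 15.7% in GFP-negative libraries. With the 6 globin genes left out of the tables, 1557 genes were higher and 1534 lower. Of the 15 genes with the largest falls, the others with a symbol outside this list were nt5c2l1 (-6.53), plac8l1 (-5.38), nmt1b (-5.26), rfesd (-5.24) and KEL (-4.74), a blood group gene, and 2 lost their call without GFP-negative replicate 2, plac8l1 (adjusted p = 0.113) and KEL (0.161).

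Glial lists moved little or in both directions. The counts of the lists in this paragraph stand against 29.9% higher and 30.7% lower over tested genes with a symbol. The endothelial counts lay near these shares, so by themselves they say nothing of that cell type. Of 11 radial glia genes 2 were lower (ndrg2, -2.20 ± 0.41, and glulc, -2.96 ± 0.65, the second with an adjusted p of 0.115 without GFP-negative replicate 2) and 0 higher, and without GFP-positive replicate 3 it was 4 lower. GLUL (2 of 2), glutamine synthetase, had 2100, 1920 and 5000 CPM in GFP-positive libraries and 4410 and 4200 CPM in GFP-negative libraries. GFP-positive replicate 3 thus lay above both GFP-negative libraries and the other GFP-positive libraries lay below them. Myelin genes were uneven as well. Of 10 oligodendrocyte genes 1 was higher, 2 were lower and 7 were not called, with a median log2 fold change of -0.52. DESeq2 called 1 higher and 0 lower. Those not called included plp1a, mag, mpz, cldn19 and olig2. plp1b had 217, 286 and 603 CPM in GFP-positive libraries and 3420 and 1750 CPM in GFP-negative libraries (log2 fold change -2.81 ± 0.81, adjusted p = 0.0222), and mbpa had 61.9, 92.4 and 441 CPM and 854 and 1210 CPM in those groups (-2.38 ± 0.69, adjusted p = 0.0234). Neither held without GFP-positive replicate 1 (adjusted p = 0.0728 and 0.0541), GFP-positive replicate 2 (0.0656 and 0.0682) or GFP-negative replicate 1 (0.168 and 0.0603), and mbpa not without GFP-negative replicate 2 (0.135). cnp, which shares the list, rose by 3.01 ± 0.35. Of 11 microglia and leukocyte genes 1 was higher, apoeb (adjusted p = 0.0496), a call not held without GFP-positive replicate 2 or 3 or either GFP-negative library (adjusted p = 0.135, 0.096, 0.238 and 0.224). Endothelial and mural genes counted 2 higher and 2 lower of 8 (1 lower without any library other than GFP-positive replicate 2), with cdh5, of endothelial junctions, lower (-2.60 ± 0.47) and cldn5a higher, at 218, 142 and 86.8 CPM in GFP-positive libraries and 6.09 and 10.6 CPM in GFP-negative libraries (4.14 ± 0.51).

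Some transcripts differed widely among the GFP-positive libraries. Liver and plasma protein genes summed to 27000, 68700 and 115000 CPM in GFP-positive libraries and 18600 and 17000 CPM in GFP-negative libraries, and 7 of 14 were called higher (2 with either GFP-negative library left out, 4 without GFP-positive replicate 3). The apolipoprotein gene apoa2 had 15200, 34600 and 56600 CPM in GFP-positive libraries, against 8840 and 8340 CPM in GFP-negative libraries (log2 fold change 2.05 ± 0.63, adjusted p = 0.0318). It was not called without GFP-positive replicate 2 (adjusted p = 0.0575), GFP-positive replicate 3 (0.1) or either GFP-negative library (0.171 and 0.188). The keratin genes krt5 and krt15 separated GFP-positive replicate 1 from replicates 2 and 3. krt5 had 1.41, 1350 and 1460 CPM in GFP-positive libraries and 293 and 98.4 CPM in GFP-negative libraries (edgeR adjusted p = 0.39). krt15 had 1.73, 1290 and 1260 CPM and 230 and 75.4 CPM in those groups (edgeR adjusted p = 0.341). The epithelial gene epcam (1 of 2) also separated replicate 1 from replicates 2 and 3 (edgeR adjusted p = 0.138). It had 1.41, 132 and 117 CPM in GFP-positive libraries and 20.2 and 9.27 CPM in GFP-negative libraries. Other keratin genes did not separate replicate 1: GFP-positive libraries had 138, 124 and 266 CPM of krt8 and 50.2, 42.7 and 120 CPM of krt18. For KRT18 (3 of 3) they had 28.3, 19.1 and 25.1 CPM. The epidermis and epithelium list had 1 of 14 higher and 1 lower, 5 higher without GFP-positive replicate 1, and 0 lower without any library other than GFP-positive replicate 3. Meningeal and fibroblast genes counted 1 of 8 higher (dcn, adjusted p = 0.0211, and 0.0633, 0.0894, 0.0677 and 0.235 without GFP-positive replicates 2 and 3 and GFP-negative replicates 1 and 2, while 3 genes were higher without GFP-positive replicate 1), muscle genes 1 of 3 lower (0 with either GFP-negative library left out), and no symbol of the retina and lens list matched. Immediate early and stress genes, which cell dissociation can induce, were higher in 11 of 29 cases and lower in 2 (4 and 1 without GFP-negative replicate 1, 8 and 0 without replicate 2), with dusp1 at 87.8, 147 and 132 CPM in GFP-positive libraries and 21.8 and 26.3 CPM in GFP-negative libraries (2.34 ± 0.35). The immediate early and stress counts, and those of the other lists in this paragraph, stand against 29.9% higher and 30.7% lower over tested genes with a symbol. The part of the transcripts in these lists in the other differences was not tested.

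The GFP-positive libraries differed in the level of many division and neuronal genes. Kinetochore genes summed to 6840, 3730 and 2880 CPM in GFP-positive libraries and 355 and 355 CPM in GFP-negative libraries. MCM genes and replication fork genes gave the same ranking of GFP-positive libraries, and of the 201 division genes called higher 179 were highest in replicate 1. Glutamate receptor genes summed to 196, 303 and 591 CPM in GFP-positive libraries and 2130 and 2390 CPM in GFP-negative libraries, and channel genes to 976, 1010 and 2010 CPM and 5400 and 5650 CPM in those groups. Of the 352 neuronal genes called lower, 305 were highest in replicate 3 among the GFP-positive libraries. For these 5 lists replicate 3 was nearest the GFP-negative libraries of the 3, and still lay outside their range. This did not hold for every list: the summed level of neuronal cytoskeleton and growth genes was 8310, 6020 and 8810 CPM in GFP-positive libraries and 8660 and 10000 CPM in GFP-negative libraries, with replicate 3 inside the GFP-negative range. Without it 1492 genes were higher and 1832 lower (9.64% and 11.8% of those tested). Without replicate 1 the counts were 1284 and 1520 (8.26% and 9.77%), and without replicate 2 they were 1306 and 1401 (8.62% and 9.25%).

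**Figure D5:**
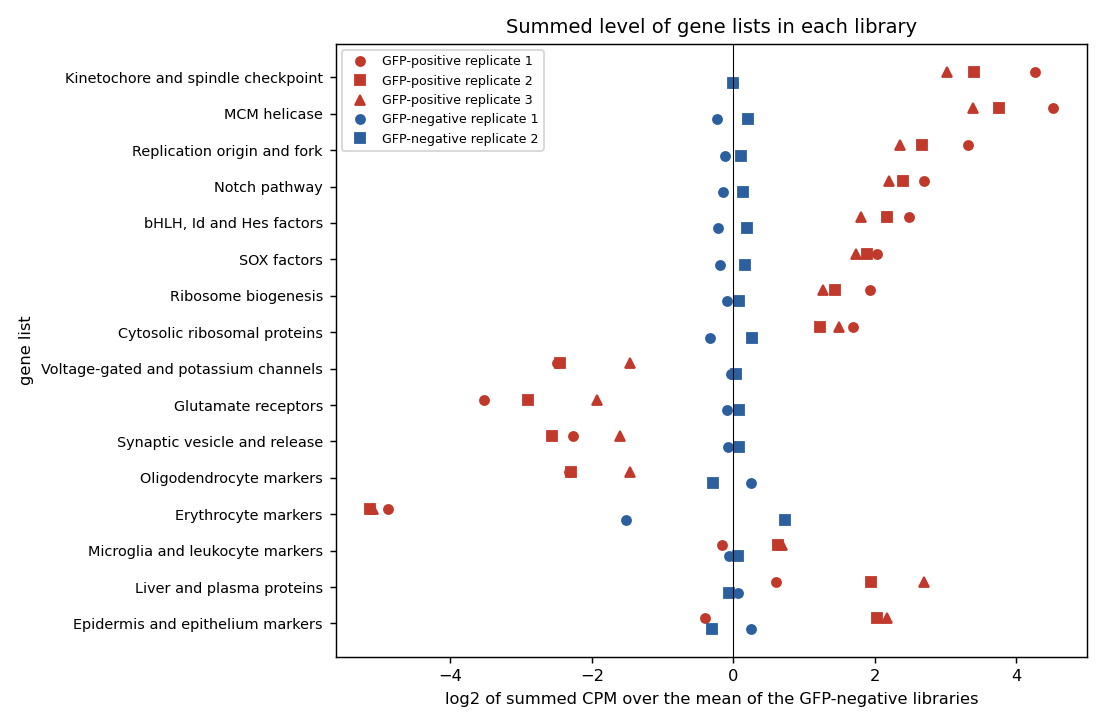
Log2 of the summed CPM of each gene list over the mean of the GFP-negative libraries (x axis), 1 point per library, GFP-positive libraries above and GFP-negative libraries below within each row. GFP-positive replicate 1 is farthest right for the kinetochore list (6840 CPM) and the MCM list, and replicate 3 is nearest the GFP-negative libraries for the channel and glutamate receptor lists.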

How the data were processed

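RNA sequencing of sorted cells gave whole read counts per gene and library, which the authors deposited without normalisation per the file headers. Per the submitters' processing notes, CASAVA 1.8.2, FastQC 0.10.1, TopHat2 and DESeq were used. Which counter, strand setting, genome build and annotation were used is not given in the sources used here. Fold changes and p-values from the submitters were not used. Of 17142 genes, 16957 had counts in all 8 libraries. The authors' sheets of changed genes supplied symbols, and 32 columns of per-sample values in them were not used.

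One edgeR 4.0.16 model (R 4.3.3) covered the counts of the 3 groups (TMM factors 0.797 to 1.32, default filterByExpr, quasi-likelihood F test, two-sided, Benjamini-Hochberg over 15640 genes). edgeR's common coefficient of biological variation came to 0.514. Each SE divides the size of the log2 fold change by the square root of F. TMM-normalised CPM serves as the level, not scaled by gene length, and the prior count for log values was 2. DESeq2 1.42.0, RLE factors, no filter, the 5 libraries alone, a replicate block, leaving out globins and leaving out each library were alternatives. The fit was tested on simulated counts. Tables were handled in Python with pandas and figures drawn with matplotlib.

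Members of 56 families were matched by symbol, without case and without copy numbers such as "(1 of 2)", and a gene can stand in several families. Named genes are wdr12, the 15 largest called changes with a symbol in each direction (mean normalised count of at least 100), and in each family the 3 called members with the smallest adjusted p, the called member with the highest mean CPM, up to 2 opposite to most, and the 2 with the highest mean CPM. Further genes were picked for their role with their values already known. The groups, families and lists were chosen with earlier results of these data known, and families were trimmed of false matches with values known. Copies and paralogues may share reads. Some genes that this rule names are not reported here.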

Additional observations from a re-analysis of the deposited data

How the results depend on the processing

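Under RLE factors, no filter on low counts, the 5 wdr12-line libraries alone, and without the globin genes, between 1428 and 1557 genes were higher and between 1466 and 1595 lower. DESeq2's Wald test called 1957 higher and 1812 lower. Leaving out 1 library at a time gave 557 to 1492 higher and 785 to 1832 lower, both GFP-negative libraries moving a count by over 1.5 times. Of 347 called genes among the 378 examined singly, 75 lost their call without GFP-negative replicate 1 and 61 without GFP-negative replicate 2, and 1 changed sign: hsp70.3, whose log2 fold change ran from -4.75 to 0.68. The cause was not tested. No scaling moved the median over all genes by more than 0.1 on the log2 scale.

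GFP-positive and GFP-negative replicates 1 and 2 share a number, and the labels do not say whether same-numbered libraries came from the same sort. Same-numbered libraries deviated from their group means with r of -0.207 and -0.242. With 2 GFP-negative libraries, their deviations are mirror images of each other, so these values cannot decide whether the libraries were paired. With that number as a replicate block 1426 genes were higher and 1718 lower, and 30 of 51 ribosomal protein genes were called higher. The 5 libraries alone gave 32. The GFP-negative group held 2 libraries with fewer counts than any GFP-positive library, which limits what could be called among low genes.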

Other observations

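Genes with no symbol also differed between the sorts. Of 10982 such genes 157 were higher in GFP-positive cells (1.43%) and 110 lower (1.0%). Among those with a mean normalised count of at least 100, the largest rises were ENSORLG00000009079 (log2 fold change 5.79) and ENSORLG00000000589 (5.25), and the largest falls were ENSORLG00000013113 (-6.84) and ENSORLG00000005799 (-5.18).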
